A study of Mus musculus with 2 samples.

Results

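The genes described here are 8 markers of Cajal-Retzius cells, namely Reln, Ndnf, Calb2, Trp73, Lhx1, Lhx5, Nhlh2 and Ebf3, out of 21911 protein-coding genes of the GENCODE M21 annotation. They were chosen by name as markers of the cell type, with earlier results of these data known. For each gene the accessible regions within 1000 bp of every annotated start, the regions in the gene body and 10 kb on either side, and the footprints inside them were collected in both libraries.

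DNase-seq cuts nuclei with deoxyribonuclease I, and stretches of open chromatin are cut most. The study held 1 group of 2 libraries, biological replicates 1 and 2. The source is labelled as layer of hippocampus tissue, from 10-day-old male mice of the B6CASTF1/J strain. These are first-generation hybrids of a C57BL and a CAST parent strain, and the labels name no treatment. Each tissue sample is described as coming from 3 males. Both samples carry the same donor label. The labels do not say whether they share animals, and SDs over them measure the spread of these samples alone, which may be technical. No second genotype, age or treatment belongs to the group, and there is accordingly no contrast between conditions. The labels name no sorting of cell types, so in these bulk libraries fewer cells of a type and less accessibility per cell cannot be told apart.

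Cajal-Retzius cells are early-born neurons of the marginal zone that secrete reelin, the glycoprotein that guides migrating neurons to their layer. Many of them arise from the cortical hem, depend on the p53 relative p73, and die after birth in the neocortex, whereas in the hippocampus they persist longer, near the hippocampal fissure. Their markers fall into a secreted group (Reln, Ndnf), a calcium-binding protein (Calb2, calretinin) and transcription factors of the p53 (Trp73), LIM homeodomain (Lhx1, Lhx5), helix-loop-helix (Nhlh2) and EBF (Ebf3) families. Reln, Ndnf and Calb2 are also made by classes of GABAergic interneurons of the hippocampus.

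The sequences of 5 regions on which the description turns are shown first. Each holds bases that lay inside footprints of both libraries, as did other regions of these loci. A footprint is a short protected stretch within an accessible region. The sequences are from the GRCm38 (mm10) reference, which represents C57BL/6J and not the hybrid, and run 5′ to 3′ on the strand of the gene. Capitals mark the bases that were inside footprints of both libraries. The first is the part of the Calb2 promoter region that lies upstream of the start, the second an intronic Reln region close to the start of a retained-intron transcript, the third an intronic Trp73 region and the fourth a region past the 3′ end of Calb2. An intronic Ebf3 region is the fifth.
Calb2 promoter, chr8:110168211-110168380, minus strand: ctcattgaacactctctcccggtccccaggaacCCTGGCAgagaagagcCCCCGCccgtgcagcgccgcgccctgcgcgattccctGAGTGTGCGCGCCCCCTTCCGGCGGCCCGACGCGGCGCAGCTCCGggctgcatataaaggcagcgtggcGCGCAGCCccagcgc
Reln intron, chr5:21933447-21933605, minus strand: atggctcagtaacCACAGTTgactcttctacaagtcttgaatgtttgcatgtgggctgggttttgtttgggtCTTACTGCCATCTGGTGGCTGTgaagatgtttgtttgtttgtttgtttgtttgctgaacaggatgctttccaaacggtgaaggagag
Trp73 intron, chr4:154105361-154105540, minus strand: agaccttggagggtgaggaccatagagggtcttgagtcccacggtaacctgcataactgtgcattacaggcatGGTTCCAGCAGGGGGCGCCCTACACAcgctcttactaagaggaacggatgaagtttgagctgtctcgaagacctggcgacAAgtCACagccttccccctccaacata
Calb2 downstream, chr8:110130601-110130780, minus strand: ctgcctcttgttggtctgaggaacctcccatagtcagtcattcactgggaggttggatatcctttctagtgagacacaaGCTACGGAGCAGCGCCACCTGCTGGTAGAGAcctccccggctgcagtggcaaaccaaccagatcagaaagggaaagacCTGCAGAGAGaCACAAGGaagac
Ebf3 intron, chr7:137246646-137246792, minus strand: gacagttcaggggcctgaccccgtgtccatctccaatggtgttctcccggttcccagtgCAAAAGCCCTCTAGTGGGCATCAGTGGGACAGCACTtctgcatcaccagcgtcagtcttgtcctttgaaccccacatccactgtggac

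The libraries yielded 54546 and 74278 regions in the shorter of the deposited lists and 94187 and 131213 in the longer, so replicate 2 had more regions in both. Regions at starts had a median height of 1.40 in replicate 1 and 1.41 in replicate 2, where height is the signal value that the authors deposited per region. Distal regions, those over 1000 bp from every annotated start, had medians of 0.949 and 0.869. Of 12 genes of hippocampal excitatory neurons, 11 had a region of the shorter list at a start in replicate 1 and 12 in replicate 2. The same rule held for 59.6% and 64.1% of all protein-coding genes, so these counts do not test the tissue label. Zbtb20 stood highest of the 12 with a mean of 7.31, before Wfs1 and Grik4 with 4.03 each, and Slc17a7 was open in replicate 2 alone. The sources used here do not give the sequencing depth.

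The marker genes were open at a start in a minority of cases in replicate 1 and in both libraries. A gene is called open where a region of the shorter list came within 1000 bp of at least 1 of its annotated starts. By that rule 3 of 8 were open in replicate 1, against 59.6% of all protein-coding genes, and 5 of 8 in replicate 2, against 64.1%. Reln, Calb2 and Ndnf, the secreted and calcium-binding products, were open in both libraries, 3 of 8 beside 59.3% of all genes. Lhx1 and Ebf3 were open in replicate 2 alone. Trp73, Lhx5 and Nhlh2 were open in neither. The part of the larger number of regions in replicate 2 in these calls was not tested. With 8 genes chosen by name no test of these shares was made.

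**Figure D1:**
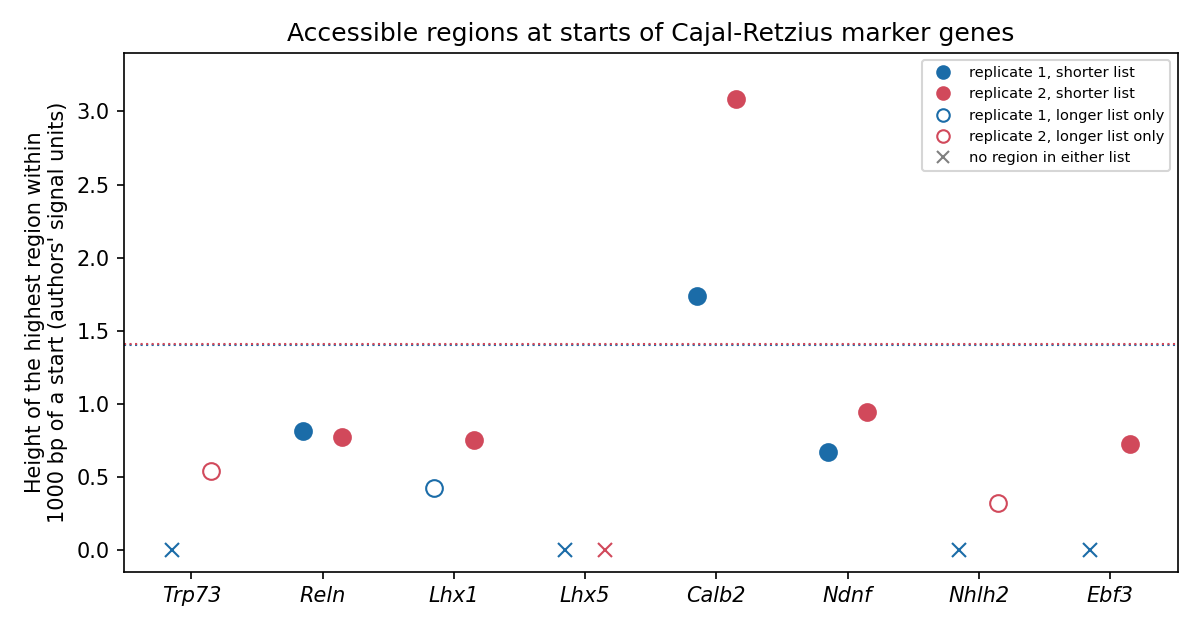
Height of the highest region within 1000 bp of a start, in the authors' signal units, for the 8 genes in replicate 1 (blue) and replicate 2 (red). Filled points are regions of the shorter list, open points regions of the longer list alone, and crosses mark no region in either list. The dotted lines are the medians of all promoter regions, 1.40 and 1.41. Calb2, at 1.74 and 3.09, is the 1 gene above them.

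Calb2 (chr8, 110137502 to 110168210, minus strand) had the highest promoter region of the 8 genes. Replicate 1 gave a height of 1.74 and replicate 2 one of 3.09, and the mean was 2.41 ± 0.951 (SD, n = 2). Its region had the same edges in both libraries, 110168161 to 110168380, and covered the start and the first exon's beginning. Among promoter regions it stood at percentile 58.5 in replicate 1 and 75 in replicate 2. The height was 1.77 times as large in replicate 2 as in replicate 1, whereas the median of all 48179 shared pairs was 1.25. That ratio stood at percentile 92.9 of all pairs, just outside the 10th to 90th percentile range of 0.904 to 1.70. Thus Calb2 was open in both libraries and differed more between them than most regions did.

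The Calb2 region held 4 footprints in replicate 1 and 6 in replicate 2, and 4 of each overlapped a footprint of the other library. The medians over shared promoter regions were 3 and 4. In the Calb2 promoter sequence above, 66 of the 170 bases were inside footprints of both libraries. The longest capital run ends shortly before TATAAA, the letters of a TATA box, which began 32 bp upstream of the nearest start. Only 2.54% of all shared promoter regions held TATAAA on either strand in the 200 bp around their middle, and at Calb2 no footprint of either library covered it.

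Reln (chr5, 21884454 to 22344702, minus strand), the gene of reelin, had the region with its highest mean height far from its main start. The region at 21933443 to 21933611 had a height of 0.811 in replicate 1, and its partner at 21933447 to 21933605 had 0.770 in replicate 2. The mean was 0.790 ± 0.0287 (SD, n = 2). It lay in an intron 411 kb into the gene and 808 bp upstream of the start of a retained-intron transcript, and counts as a start for that reason. At the main start, that of the protein-coding Reln transcripts, the libraries had 1 region each. Replicate 1 had a region of height 0.377 at 22345216 to 22345310, 561 bp upstream, and replicate 2 one of 0.601 at 22344361 to 22344556, 243 bp into the gene. These did not overlap. In the longer lists, which reach weaker regions, 2 pairs at the main start did overlap. In 1 of these pairs the region of replicate 1 overlapped its own region of the shorter list, and that of replicate 2 was in the longer list alone, with a height of 0.448.

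Ndnf (chr6, 65671590 to 65712326, plus strand) encodes a secreted neurotrophic factor that also marks a class of interneurons in superficial layers. Over its start replicate 1 had a region of height 0.673 and replicate 2 one of 0.945, and the mean was 0.809 ± 0.193 (SD, n = 2). Both values were below the promoter medians, at percentiles 16 and 31.7. Replicate 2 had 4 regions within 1000 bp of the start where replicate 1 had 1, and the other 3 had heights from 0.306 to 0.311. Footprints in the region over the start numbered 3 and 6, and 2 of each library overlapped one of the other. The upstream part of the Ndnf region held the GC box GGGCGG, as did the Calb2 region, a sequence found in 49.4% of all shared promoter regions.

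Among the transcription factors, Ebf3 and Lhx1 had a region in replicate 2 alone. Ebf3 (chr7, 137193673 to 137314445, minus strand), an EBF family factor, had a height of 0.726 in replicate 2, at 137314486 to 137314628 and 112 bp upstream of its outermost start. Replicate 1 had no region there in either list. Lhx1 (chr11, 84518284 to 84525535, minus strand), a LIM homeodomain factor, had a height of 0.754 in replicate 2 at 84522741 to 84522840, beside internal starts and 2.74 kb into the gene. At the outermost start of Lhx1 replicate 1 had a region in the longer list alone, of height 0.421 and 56 bp upstream, and replicate 2 had none. The libraries thus placed Lhx1 accessibility at different starts. An antisense gene, Lhx1os, begins close to the outermost start, and a DNase region carries no strand.

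Trp73 (chr4, 154056253 to 154140208, minus strand), whose product p73 is used to define hem-derived Cajal-Retzius cells, had no region of the shorter list at any of its 5 starts. The outermost start gives the full-length protein, and the starts at 154097173 and 154097167, in the third intron of the longest transcript, give the form without the N-terminal transactivation domain. In the longer lists replicate 2 had regions of height 0.541 and 0.437 at 321 bp and 807 bp upstream of the outermost start, and replicate 1 had none. The internal starts had none in either library. Lhx5 (chr5, 120431699 to 120441223, plus strand), the close relative of Lhx1, had no region of either list at its single start in either library. Nhlh2 (chr3, 102010076 to 102015492, plus strand), a helix-loop-helix factor, had 2 regions of the longer list in replicate 2, with heights of 0.311 and 0.322, and none in replicate 1.

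With the longer lists 4 genes were open in replicate 1, beside 64.9% of all genes, and 7 in replicate 2, beside 68.5%. In both libraries 4 were open, beside 64.4%, with Lhx1 added at different starts. Lhx5 was the gene without a region in either list. Requiring that the regions of both libraries overlap left 3 of 8, beside 59.2% of all genes, and using the outermost start of each gene alone left 3 of 8, beside 54.6%. Of the 33 annotated starts of the 8 genes, 6 had a region in replicate 1, 13 in replicate 2 and 6 in both, whereas 48.8% of all protein-coding starts had one in both. At 14 of the 33 no region of the longer lists was found in either library. These include internal Reln starts of retained-intron and processed transcripts. The share of all protein-coding starts without such a region was not counted. Among the 8 genes, only Calb2 and Ndnf had overlapping regions of the shorter lists at their main start.

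The false discovery rates that the authors deposited for the cut rate of each base, listed up to 0.05, show how much signal lay under each start. At Calb2 445 of 2005 bases around the starts were listed in replicate 1 and 695 in replicate 2, with lowest values of 2.71e-16 and 1.43e-24. The outermost start of Ndnf had 518 and 1642 listed bases, with lowest values of 3.02e-07 and 2.63e-16. At the main start of Reln 564 and 1480 bases were listed, but the lowest values were 0.000263 and 7.83e-05. The intronic Reln region reached 4.28e-07 and 3.27e-07. Listed bases at the main Reln start were thus more numerous than at Calb2, and their values weaker. Genes open at their outermost start had a median of 929 and 1161 listed bases in a window of 2001 bp.

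Among the transcription factor genes, the outermost start of Lhx1 had 153 listed bases in replicate 1 and 0 in replicate 2, with a lowest value of 0.0178. The internal starts of Lhx1 had 0 in replicate 1 and 332 in replicate 2, with a lowest value of 7.44e-05. Ebf3 had 4 listed bases at its outermost start in replicate 1 and 677 in replicate 2. Trp73 had 0 and 191 at its outermost start, with a lowest value of 0.0213. Nhlh2 had 0 and 115, with a lowest value of 0.0228. Lhx5 had 0 in both. A base at 0.001 or lower was present in both libraries at 3 of 8 genes, Reln, Calb2 and Ndnf, beside 60.1% of all genes.

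**Figure D2:**
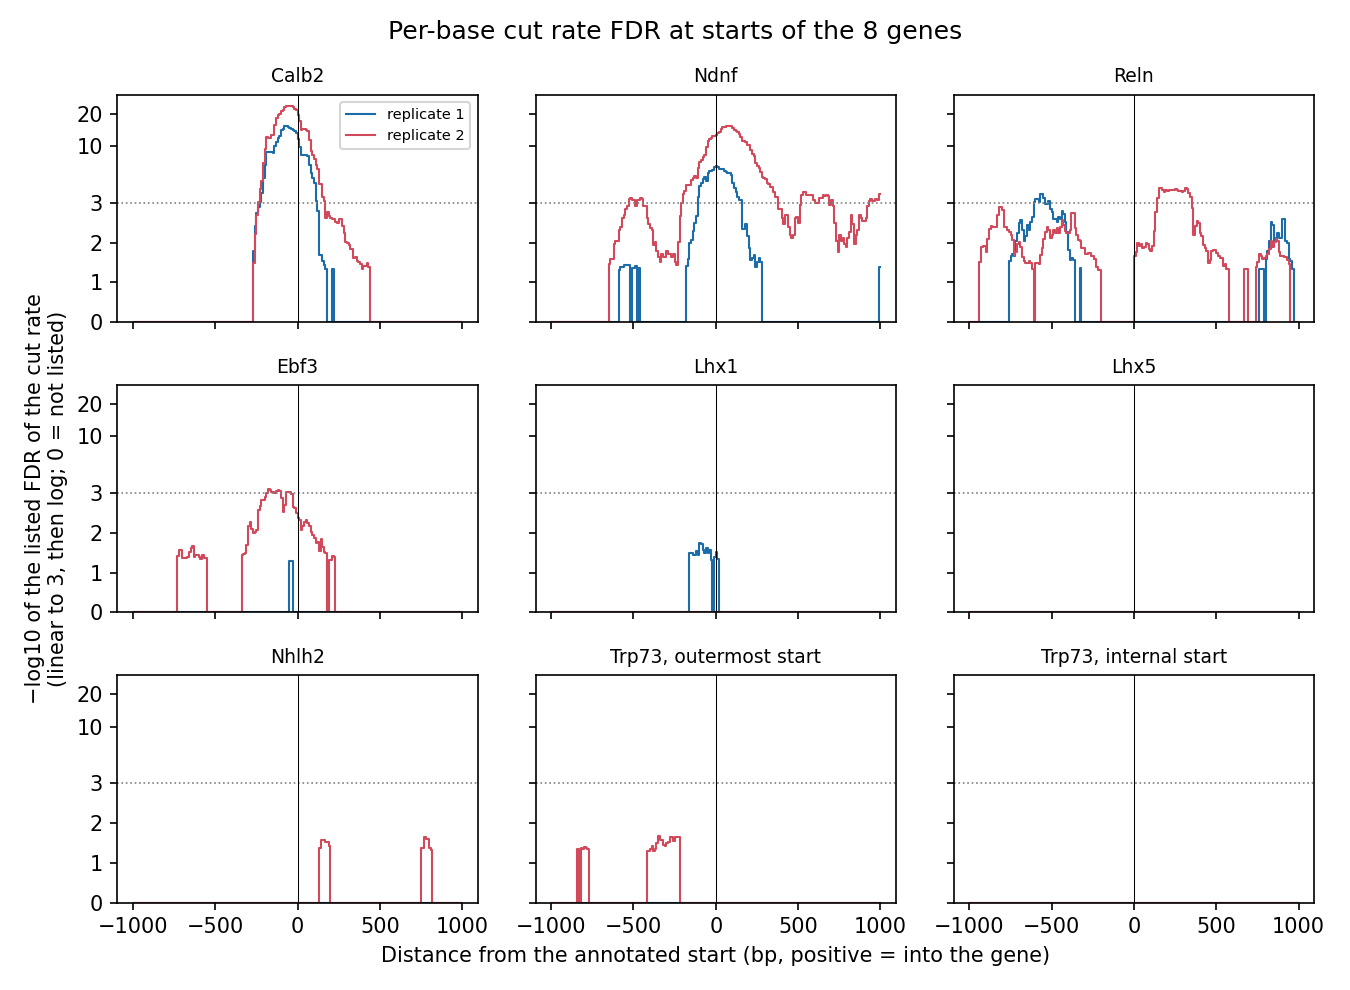
Listed false discovery rate of the cut rate as −log10, per 10 bp, within 1000 bp of a start (x axis in bp, positive into the gene) in replicate 1 (blue) and replicate 2 (red); Trp73 has a panel for its outermost and its internal start, and the other genes show a main or outermost start. The y axis is linear to 3 and logarithmic above, 0 means not listed, and the dotted line is 0.001. Calb2 and Ndnf rise far above the line in both libraries, and the panels of Lhx5 and of the internal Trp73 start are empty.

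In each library every open marker gene had a footprint near a start. Lhx1 also had footprints in replicate 1, where its only region at a start was in the longer list. In replicate 1 4 of 8 genes had a footprint within 1000 bp of a start, beside 63.5% of all genes. These were Reln with 9, Calb2 with 4, Ndnf with 3 and Lhx1 with 2. In replicate 2 5 of 8 had one, beside 67.3%, namely Reln with 11, Ndnf with 10, Calb2 and Ebf3 with 9 each and Lhx1 with 1. Trp73, Lhx5 and Nhlh2 had none in either library.

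Most of the marker genes start in CpG-rich sequence, the kind of promoter that is often open in many tissues. A start was called CpG-rich where the 1000 bp around the outermost start had an observed to expected CpG ratio of at least 0.6 and at least 50% GC. By that rule 6 of the 8 were CpG-rich, with ratios from 0.722 in Lhx5 to 1.04 in Ebf3. Of those 6, Reln and Ndnf were open in both libraries, 2 of 6, whereas 91.7% of all CpG-rich genes were. Calb2, with a ratio of 0.526, and Nhlh2, with 0.178 and 42.8% GC, were not CpG-rich. Of that pair Calb2 was open in both, 1 of 2 beside 33.4% of all such genes.

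Away from starts, regions were present in most of the loci. Counting distal regions in the gene body and 10 kb of flank, replicate 1 had 20 in the 8 loci, replicate 2 had 29, and 17 of replicate 1 overlapped one of replicate 2. At least 1 shared distal region was present in 6 of 8 genes, beside 44.1% of all genes, with Lhx1 and Nhlh2 having none. These shares were not matched for locus length. The loci of Lhx1 and Nhlh2 were the shortest of the 8, at 27.25 and 25.42 kb, and that of Reln the longest, at 480.2 kb. Of the 17, 11 were intronic, 2 exonic and 4 in flanks. Heights were greater in replicate 2 at 10 of the 17, whereas 81.2% of all shared pairs were higher in that library. Above the distal median of their library were 4 of the 17 in replicate 1 and 8 in replicate 2. Those medians are over all distal regions, shared or not. The share of all shared distal regions above them was not counted. Of the unshared distal regions, 3 of 3 of replicate 1 and 9 of 12 of replicate 2 were present in the longer list of the other library. The share of all unshared distal regions found in this way was not counted, so these counts have no background.

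**Figure D3:**
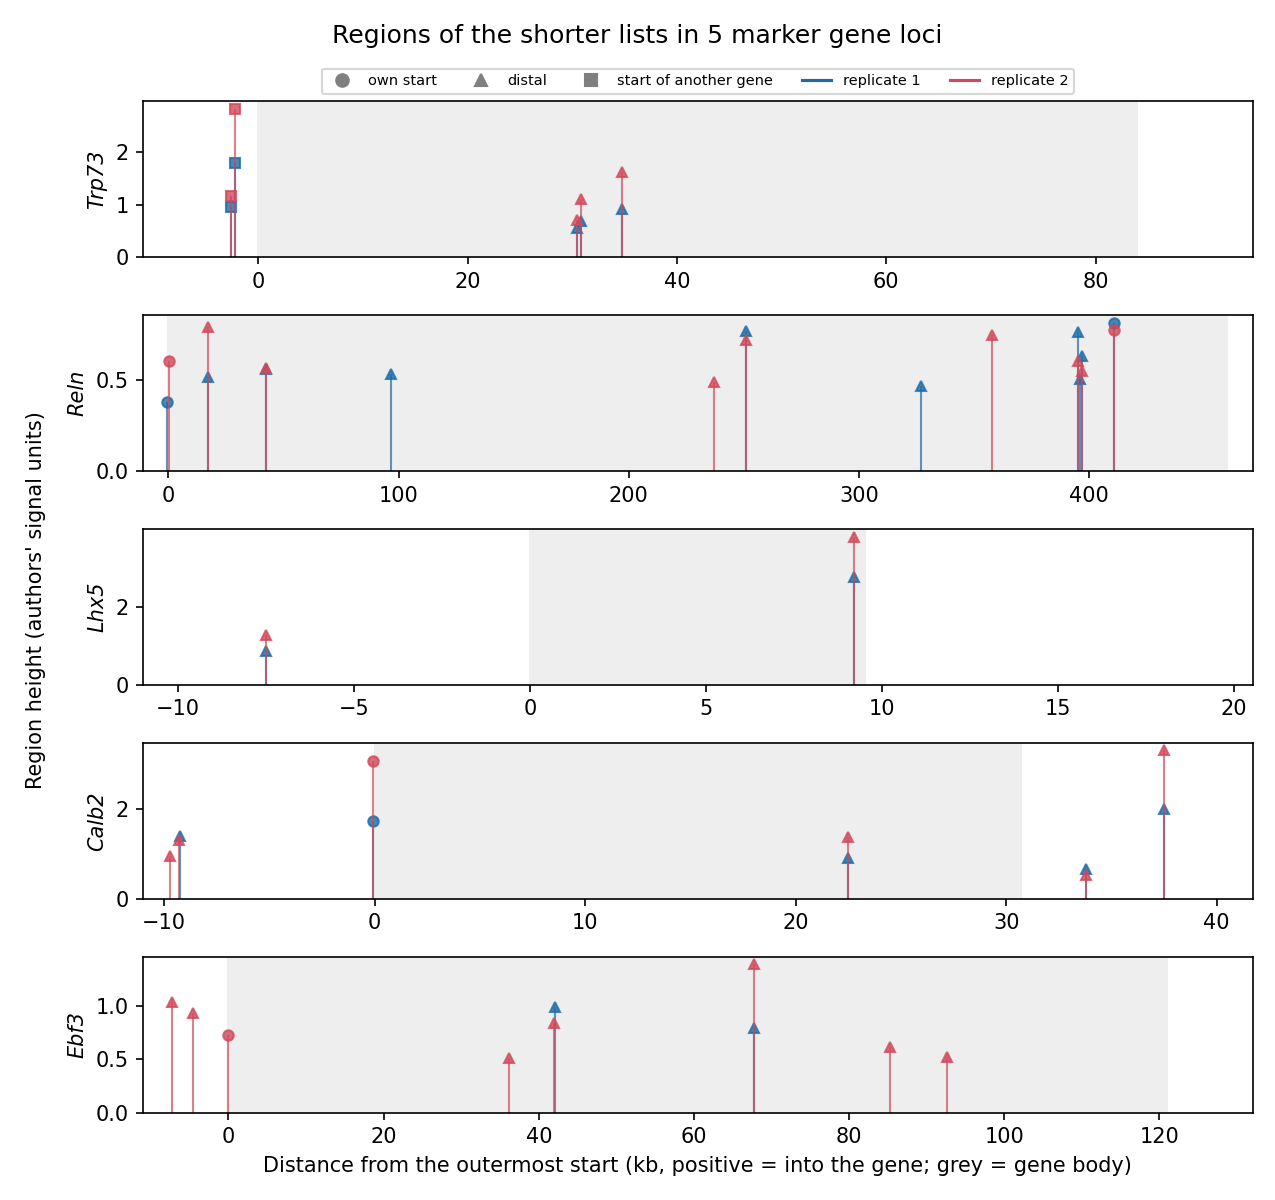
Regions of the shorter lists in the loci of Trp73, Reln, Lhx5, Calb2 and Ebf3, by distance of their middle from the outermost start (kb, positive into the gene, grey marks the gene body) and height (authors' signal units). Circles are regions at the gene's own starts, triangles distal regions and squares regions at a start of another gene, in replicate 1 (blue) and replicate 2 (red). Trp73 and Lhx5 have triangles in both libraries and no circle.

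Lhx5 and Trp73, which had no region of the shorter list at a start, both had shared distal regions. The region over the 3′ untranslated region of Lhx5, at 120440821 to 120441000 and 9.21 kb from the start, was the highest distal region of all 8 loci. It reached 2.77 in replicate 1 and 3.79 in replicate 2, at percentiles 94.6 and 96.2 of distal regions. It held 4 footprints in each library. A second Lhx5 region, 7.50 kb upstream of the start, had heights of 0.861 and 1.28.

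Trp73 had 3 shared distal regions, all in the intron after its first exon and 30.5 to 34.8 kb from the outermost start. The region at 154105361 to 154105540 had heights of 0.924 and 1.62. The next, at 154109307 to 154109520, had 0.679 and 1.11, and the last, at 154109636 to 154109780, had 0.547 and 0.705. All were higher in replicate 2. The start of the neighbouring gene Wrap73, 2.18 kb upstream of Trp73, was open in both libraries with heights of 1.78 and 2.82, and is not counted for Trp73.

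Calb2 had 4 shared distal regions in a locus of 50.7 kb, or 7.89 per 100 kb. The highest lay past the 3′ end, at 110130601 to 110130780, with heights of 2.00 and 3.32 at percentiles 86.8 and 94.4. The upstream region at 110177361 to 110177600, 9.27 kb before the start, had 1.41 and 1.32. An exonic region 22.5 kb into the gene had 0.918 and 1.39, and the remaining one 0.666 and 0.541. The start and the farthest downstream region were both higher in replicate 2, and the upstream region was not.

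In Reln 5 shared distal regions were spread over a locus of 480.2 kb, 1.04 per 100 kb, and all were intronic. None exceeded 0.787 in either library. The Reln region 251 kb into the gene had 0.767 and 0.716, and that 17.3 kb into the gene had 0.515 and 0.787. The others had heights of 0.559 to 0.761 in replicate 1 and 0.546 to 0.601 in replicate 2.

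Ebf3 had 2 shared intronic regions, with heights of 0.798 and 1.39 at 67.7 kb and 0.987 and 0.841 at 42.1 kb from the start. Replicate 2 alone had 5 more, including 2 upstream, 4.62 kb and 7.22 kb before the start, with heights of 0.934 and 1.04. Ndnf had 1 shared intronic region 1.25 kb from the start, with 0.509 and 0.415. Nhlh2 had 3 distal regions in replicate 2 alone, over its exons. One of them, at 102012211 to 102013256, was 1046 bp wide with 11 footprints and overlapped another listed region, and regions of 1000 bp or more made up 0.258% of that library. Its height was 0.661, and replicate 1 had a region of the longer list there.

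**Figure D4:**
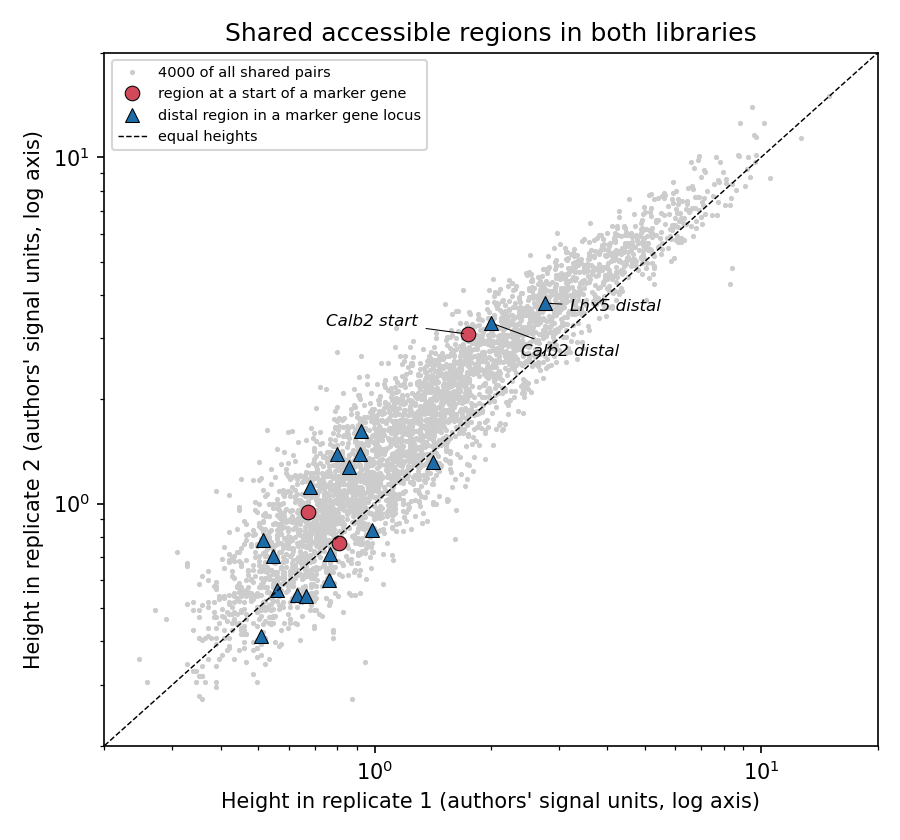
Heights in replicate 1 (x axis) and replicate 2 (y axis) of shared regions, in the authors' signal units on log axes. Grey points are 4000 of the 48179 shared pairs, red circles the 3 regions at starts of marker genes and blue triangles the 17 distal regions. The Calb2 start, the Calb2 downstream region and the Lhx5 region stand highest, at 1.74 and 3.09, 2.00 and 3.32, and 2.77 and 3.79.

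Sequence shared among the regions was sought with 14 motifs, on both strands, in the 200 bp around the middle of each shared region. The CTCF motif, the site of the insulator protein CTCF, matched in 4 of the 17 distal windows, in Trp73, Lhx5, Calb2 and Ebf3, and in 1 of the 3 promoter windows, that of the Reln intron. Of all shared distal regions 14.5% held it, and of promoter regions 2.73%. At all 5 matches a footprint lay over the motif in both libraries. The share of all matches in shared regions that were covered in this way was not counted. Of all shared distal regions 4.01% in replicate 1 and 2.76% in replicate 2 held no footprint, and of promoter regions 10.2% and 7.23%. The 5 matches are aligned here on the strand of the motif. Capitals are the letters that were matched, with 4 bases of reference on either side.
Trp73, chr4:154105448-154105467, minus strand: ggttCCAGCAGGGGGCgccc
Reln, chr5:21933512-21933531, plus strand: acagCCACCAGATGGCagta
Lhx5, chr5:120440908-120440927, minus strand: tgagCCACCAGGGGGCgcca
Calb2, chr8:110130673-110130692, plus strand: tctaCCAGCAGGTGGCgctg
Ebf3, chr7:137246713-137246732, plus strand: atgcCCACTAGAGGGCtttt
The 5 matches share the letters CCA at the beginning, AG in the middle and GGC at the end, as the motif requires, and differ in the letters between. The Calb2, Lhx5 and Trp73 matches lay in the highest distal region of their locus in both libraries. That of Ebf3 did so in replicate 2, at 1.39. In replicate 1 its region had 0.798, below another Ebf3 region at 0.987. The Trp73 and Ebf3 regions with a match stood at percentiles 47.9 and 37.6 of distal regions in replicate 1, below the median. Among all shared distal regions the share with a match was 8.07% in the lower 50% by height in replicate 1, 19.3% from percentile 50 to 90 and 27.1% in the highest 10%. The Reln match contains CAGATG, an E-box, so these are 1 stretch of sequence under 2 names.

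Motifs of the LIM homeodomain, EBF and p53 families had no match in these windows. TAATTA, the core bound by LIM homeodomain factors among others, was in 0 of 17 distal and 0 of 3 promoter windows, beside 3.80% and 0.988% of all such regions. CCCNNGGG, the EBF palindrome, was in 0 of 17 and 0 of 3, beside 6.63% and 14.3%. The full p53 family site was in 0 of 17 and 0 of 3, and in 0.00373% of all distal regions and 0% of promoter regions. A missing match says only that these letters are not in these windows. The E-boxes CAGCTG and CAGATG, letters bound by helix-loop-helix factors, matched in 5 and 4 distal windows, beside 19.8% and 23% of all, and CCAAT and TTGGCA in 6 and 4, beside 25% and 21.5%. The last pair can overlap where the letters run on, since ATTGG is CCAAT on the opposite strand.

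Related gene lists, chosen with earlier results of these data known, were read by the same rule. The reelin pathway list held 12 genes. These were receptors, adaptors and further genes placed in the response of cells to reelin, such as Fyn, Src and Rap1a. All 12 were open in both libraries, beside 59.3% of all genes. Crkl and Crk, adaptor proteins downstream of the reelin adaptor Dab1, stood highest with mean heights of 6.01 and 5.67. Dab1 itself had 2.42 and 2.74, and the receptor genes Vldlr and Lrp8 had 1.24 and 1.92, and 2.26 and 4.23. Among the genes of reelin signalling, the ligand gene Reln, at a mean of 0.790, was below all 12 of these. The lowest of the 12 was the integrin gene Itga3 with 0.835. That Reln mean belongs to the intronic region near the start of a retained-intron transcript. At the main start the Reln heights were 0.377 and 0.601, in regions that did not overlap. The intronic Reln mean and the Itga3 mean differed by less than the spread between the libraries of Itga3, which had 0.698 and 0.972.

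Of 14 further genes of Cajal-Retzius cells and the cortical hem, 7 were open in both libraries, beside 59.3% of all genes. Emx2, a homeobox gene of the hippocampal primordium, and Cxcr4, the chemokine receptor of migrating Cajal-Retzius cells, stood highest with means of 3.58 and 2.10. Among those open in neither were Barhl2, Lmx1a, Wnt3a, Wnt2b and Gdf7, most of them patterning genes of the hem, and Bmp4 was open in replicate 2 alone. Of 15 paralogs of the markers 9 were open in both, beside the same 59.3% of all genes. Trp53 and Lhx2 stood highest with 5.86 and 3.28, Lhx4, Lhx6, Lmx1b and Nhlh1 were open in neither, and Lhx8 and Isl1 in replicate 2 alone.

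The families differed in which member stood higher, and the pairs named here were chosen after their values were seen. Trp53 had heights of 5.48 and 6.23 and Trp63 0.679 and 0.759, against no region of the shorter list at a start for Trp73. Ebf1 had 1.18 and 1.08, and Ebf2 1.18 and 1.53, whereas Ebf3 had a region in replicate 2 alone. Lhx2 had 2.95 and 3.61, and its relatives Lhx1 and Lhx5 had no region shared at a start. Nhlh1, like Nhlh2, was open in neither library. Calb2 was higher than its relative Calb1, with 1.74 and 3.09 against 0.805 and 1.16.

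Markers of other cells that could hold Reln, Ndnf or Calb2 signal were also listed. Of 16 interneuron genes 6 were open in replicate 1, 12 in replicate 2 and 6 in both. The shares over all genes given above were 59.6%, 64.1% and 59.3%. Their promoter regions had mean heights of 0.479 to 2.52 where both libraries had one. Gad1, the GABA-synthesising enzyme, and Prox1, which dentate granule cells also express, had 2.52 and 1.84. Gad2, Slc32a1, Dlx5, Vip, Sp8 and Nr2f2 were open in replicate 2 alone, and Dlx1, Dlx2, Dlx6 and Sst in neither. The part of interneurons in the Reln, Ndnf and Calb2 regions was not tested. Choroid plexus and ependymal genes were open in both libraries in 2 of 8, beside 59.3% of all genes, with Foxj1 at 6.51 and Ccdc153 at 1.33. Ttr was open in replicate 2 alone, and Otx2, Folr1, Aqp1, Tmem212 and Kcne2 in neither. Genes of meninges and vessels were open in both in 3 of 10, beside the same 59.3%, led by Col1a1 at 3.38 and Foxc1 at 1.00. Pdgfrb was open in replicate 1 alone, and Col1a2, Dcn, Lum, Foxd1, Cldn5 and Pecam1 in neither.

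**Figure D5:**
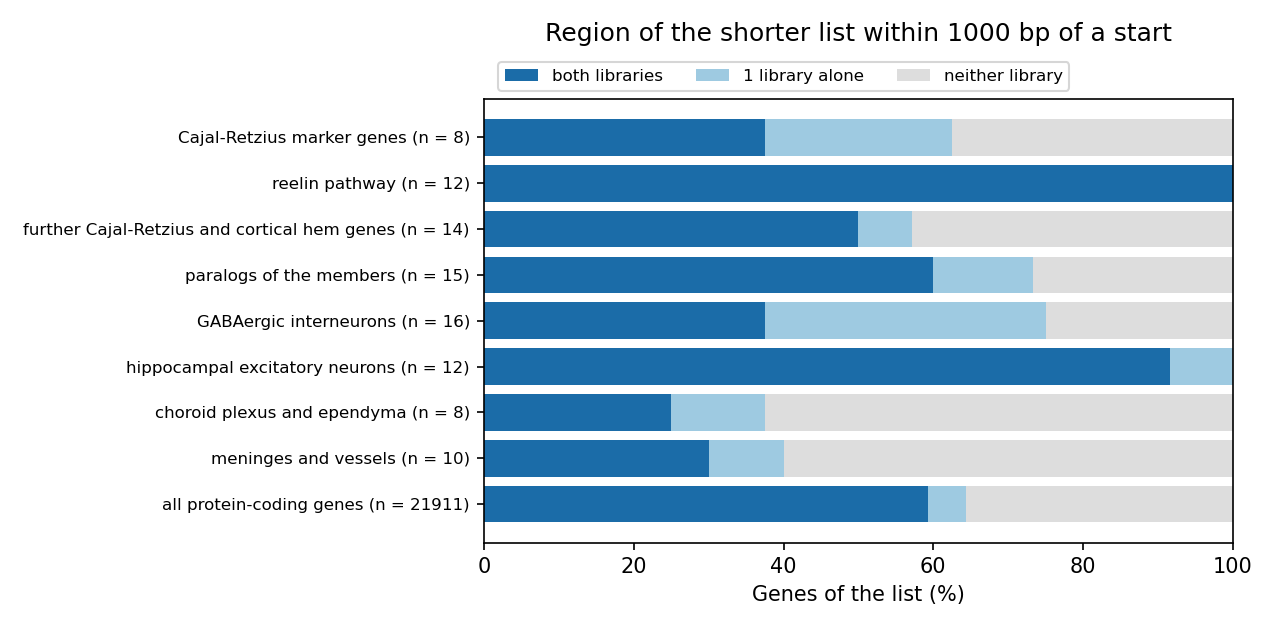
Share of the genes of each list (x axis, percent) with a region of the shorter list within 1000 bp of a start in both libraries (dark blue), in 1 library (light blue) or in neither (grey). Of the 8 marker genes 3 are open in both, as against 12 of 12 in the reelin pathway. Among genes of hippocampal excitatory neurons 11 of 12 are, and over all protein-coding genes 59.3%.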

How the data were processed

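The assay was DNase-seq, applied to 2 libraries of 1 group. The authors deposited, per library, 2 lists of regions with a signal height, footprints and the false discovery rate of the cut rate per base. Per the notes in the labels and with the samples, these derive from filtered alignments, library by library, together with unnamed other inputs, on mm10. Aligner, caller, normalisation of heights and depth were not given in the sources used here. In every footprint row the deposited p-value is 0.01, read here as a limit of the authors, and the deposited false discovery rates, taken as adjusted p-values of the authors, end at 0.05. Python 3.11.15 with numpy 2.4.6 and pandas 2.3.3 was used. Genes were from GENCODE M21 and sequence from GRCm38, in which all region ends lay within the chromosomes. Regions were shared if they overlapped by at least 1 bp, and counting was tested on simulated data. With 1 group no test between conditions was made. Samples were grouped by their labels. Alternatives were the longer lists, the stronger 50% of regions, other distances, flanks and overlaps, and each library alone. All 8 markers are named. Of other lists, the 2 highest genes and those open in 1 library or in neither are named. Reelin receptors, Dab1, Itga3, EBF and p53 relatives and Calb1 are examples chosen after their values were seen. A single gene of the hem list is not named here. Markers and lists were chosen with earlier results of these data known.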

Additional observations from a re-analysis of the deposited data

How the results depend on the processing

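The number of marker genes open in both libraries was 3, and 1 (Calb2) with the stronger 50% of regions; the longer lists, distances of 500 and 2500 bp, overlapping regions and the outermost start alone gave 2 to 4, the last 2 settings being chosen after seeing the data. Without each replicate in turn the count was 3 to 5. Annotated starts open in both numbered 6, and 2 with the stronger 50% and 3 at 500 bp, with 6 to 13 without each replicate. Shared distal regions numbered 17, and 30 in the longer lists, 3 with the stronger 50% and 26 with flanks of 50 kb, with 20 to 29 without each replicate. These settings admit more or fewer regions by construction. The mean heights of Reln, Calb2 and Ndnf did not change with the longer lists. No paired analysis was possible because there is 1 group. At 500 bp Reln was lost, and at 2500 bp Trp73 was added through the region at the start of Wrap73. Without read counts no lower limit of detection can be given for genes without a region.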
